A study of Homo sapiens with 18 samples.

Results

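The route by which cells make, desaturate and lengthen fatty acids was followed through 10 of the 28395 genes in the count table of a study of PC-3 cells, an established line from a human prostate cancer. The 10 were taken by name for their place in that route: the regulator gene SREBF1, the acetyl-CoA suppliers ACSS2 and ACLY, the synthesis enzymes ACACA and FASN, the desaturases SCD, FADS1 and FADS2, and the elongases ELOVL5 and ELOVL6. The choice was made with earlier results of these data known. The shares of all genes set beside counts of the 10 are therefore descriptions and no independent support. All 10 were found by NCBI Gene ID, and all 10 passed the filter on low counts. The study compared cells pushed as a suspension through a syringe and a 30G needle at 250 µL/s, which gives a short pulse of fluid shear stress (sheared), with cells kept in suspension without that passage (static). After the pulse, sheared and static cells alike stayed unattached in wells coated with poly-HEMA until 3 h, 12 h or 24 h. All cells had grown with 10% fetal bovine serum, and during the experiment both arms were in DMEM with insulin, transferrin, selenium and 5 mg/mL bovine serum albumin in place of serum. Each of the 6 groups had 3 libraries, or 18 in all, and at each time the sheared and static library of a replicate number came from a single pool of cells. The pools of different times were independent, and the 3 h libraries carry another batch date than the 12 h and 24 h libraries.

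Fatty acid synthesis starts from cytosolic acetyl-CoA, which ATP citrate lyase (ACLY) cuts from citrate and acetyl-CoA synthetase (ACSS2) makes from acetate. Acetyl-CoA carboxylase (ACACA) turns it into malonyl-CoA, fatty acid synthase (FASN) builds palmitate from both, and elongases and desaturases then lengthen the chain and add double bonds. SREBF1 encodes SREBP-1, a transcription factor held in the endoplasmic reticulum membrane and released when sterols run low, and the other 9 genes are among its known targets or those of its relative SREBP-2. Prostate cancers are known for active synthesis of this kind.

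Libraries held 16400487 to 25862360 counts, so that even the least abundant of the 10 genes, ELOVL6, had 110 to 447 counts per library. RNA came from the cytosolic fraction of a detergent lysate. The carcinoma markers KRT8, KRT18, KRT19, EPCAM, CDH1 and VIM were present in every library, with a summed level of 3684 to 8762 CPM (counts scaled to a fixed library total). Markers of androgen-dependent prostate cells were mixed: KLK2 had no count in any library, KLK3 had 0 or 1 and KLK4 0 to 9, while TMPRSS2 had 566 to 2756 counts, FOLH1 236 to 807 and STEAP2 79 to 279. The third sheared library at 24 h stood apart from the others: its TMM scaling factor (edgeR's correction for library composition) was 0.721, the lowest of the 18, and the 100 most abundant genes took 28.2% of its counts, the highest share. Its level of MALAT1, an RNA retained in the nucleus, was 49.3 CPM, against 26.5 and 6.90 CPM in the other sheared 24 h libraries, and results at 24 h are therefore also given without that pool.

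In the GENCODE 29 annotation SREBF1, ACLY, ACACA and FASN lie on chromosome 17, FADS1 and FADS2 on chromosome 11, SCD on chromosome 10, ACSS2 on chromosome 20, ELOVL5 on chromosome 6 and ELOVL6 on chromosome 4. Promoter windows from RefSeq (GRCh38.p14, 250 bases before to 50 bases after an annotated start) were matched by symbol for 9 of the 10 genes, with 14 windows in all. Of these, 3 upstream stretches are shown because 2 of the genes, SCD and ACSS2, fell in sheared cells at 12 h and 24 h, while ELOVL5 passed the threshold at neither time. They lie at chr10:100346983-100347232 on the plus strand (SCD), chr20:34874739-34874988 on the plus strand (ACSS2, the first of its 2 windows) and chr6:53348951-53349200 on the minus strand (ELOVL5). Each is written 5′ to 3′ in the direction of transcription up to the base before the start, and capitals mark CCAAT or its reverse complement ATTGG, the letters read by the factor NF-Y.
SCD: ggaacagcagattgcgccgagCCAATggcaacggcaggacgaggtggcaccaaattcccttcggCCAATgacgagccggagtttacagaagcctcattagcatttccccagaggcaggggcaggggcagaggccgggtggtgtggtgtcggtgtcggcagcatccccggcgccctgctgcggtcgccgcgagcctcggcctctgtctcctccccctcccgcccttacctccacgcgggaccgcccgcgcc
ACSS2: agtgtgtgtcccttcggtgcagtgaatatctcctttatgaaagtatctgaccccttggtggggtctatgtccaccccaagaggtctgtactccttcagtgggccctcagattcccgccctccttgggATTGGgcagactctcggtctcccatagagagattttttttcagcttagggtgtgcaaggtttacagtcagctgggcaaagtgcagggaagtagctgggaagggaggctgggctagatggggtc
ELOVL5: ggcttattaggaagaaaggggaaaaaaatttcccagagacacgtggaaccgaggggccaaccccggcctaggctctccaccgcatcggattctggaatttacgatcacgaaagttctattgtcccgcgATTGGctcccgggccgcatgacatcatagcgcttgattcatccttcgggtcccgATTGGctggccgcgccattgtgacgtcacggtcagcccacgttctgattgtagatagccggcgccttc
CCAAT stood on either strand in windows of 6 of the 9 genes (ACLY, ACACA, SCD, FADS2, ELOVL5 and ACSS2), against 39.7% of all genes with a window and 42.7% of the genes tested. In SCD the 2 copies began 229 and 186 bases before the start, and in ELOVL5 they began 122 and 68 bases before it. GGGCGG, the GC box, was found in 8 of the 9, against 48.3% of all genes and 74.8% of those tested, with none for ELOVL5. The E-box CACGTG was found in ELOVL5 alone of the 9, against 8.78% of all genes. TCACCCCAC, the core of the sterol regulatory element, and TCACNCCAC, which leaves 1 position open, were in none of the 9, and in 0.535% and 1.39% of all genes. Neither was in any of the 15 genes of sterol synthesis and uptake with a window, so their absence does not set the 9 genes apart. Both strands were searched for each motif, every TCACCCCAC is also a TCACNCCAC, and neighbouring matches of the other motifs may share end bases. Of the 6 genes with a window that fell at 12 h, 4 held CCAAT and 6 held GGGCGG, and of the other 3 genes 2 held each.

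Levels per kilobase of mRNA spanned a wide range among the 10 genes. In static cells at 3 h, FADS2 and SCD led, at 191 ± 16.4 and 169 ± 21.9 CPM per kilobase (SD, n = 3), and their libraries overlapped. FASN at 76.2 ± 11.1 and SREBF1 at 72.7 ± 2.22 came next and overlapped each other. ACLY, ELOVL5 and FADS1 formed the next tier, at 55.7 ± 6.09, 55.5 ± 2.77 and 51.1 ± 4.93 CPM per kilobase, and could not be ordered within their spread. Below them stood ACSS2 at 19.2 ± 1.94, ACACA at 10.8 ± 0.818 and ELOVL6 at 3.62 ± 0.433 CPM per kilobase, each apart from its neighbours. By 24 h in static cells FADS2 had 521 ± 108 and SCD 347 ± 74.7 CPM per kilobase, and ACSS2 had moved up to 107 ± 22.8, where its libraries overlapped those of FASN and FADS1. ACACA and ELOVL6 remained the lowest pair in each of the 6 groups. These values divide by the longest protein-coding mRNA in the GENCODE 29 annotation. Dividing by all annotated exons instead put SCD above FADS2 over the 18 libraries and moved FADS1 from the fourth to the eighth place, since FADS1 and FADS2 have many more annotated exon bases than their mRNAs.

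The comparison of sheared with static cells at each time asks how the pulse bears on this route. At 3 h none of the 10 genes passed the threshold in either direction (edgeR's quasi-likelihood test, Benjamini-Hochberg adjusted p under 0.05 over 15189 genes). Of all genes, 1.46% were called, 1.12% higher and 0.342% lower. None of the 10 had an unadjusted p under 0.05, against 1396 of the 15189 genes, and none passed in DESeq2. At 12 h, 7 of the 10 fell in sheared cells and none rose, against 4.55% of all genes called lower, 6.29% called higher and 10.8% called in either direction. At 24 h, 8 of the 10 fell and none rose, against 8.07% lower, 9.13% higher and 17.2% in either direction. The members' median log2 fold change of sheared over static was -0.09 at 3 h, -0.69 at 12 h and -0.82 at 24 h, where the median of all genes tested lay at 0.01, -0.01 and -0.02. The 7 genes that fell at 12 h were SREBF1, ACSS2, ACACA, FASN, SCD, FADS1 and FADS2, and at 24 h the same 7 and ACLY fell. The elongases ELOVL5 and ELOVL6 passed the threshold at no time in this fit. In RNA from a whole culture, fewer cells that express a gene and less of its RNA per cell cannot be told apart.

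**Figure D1:**
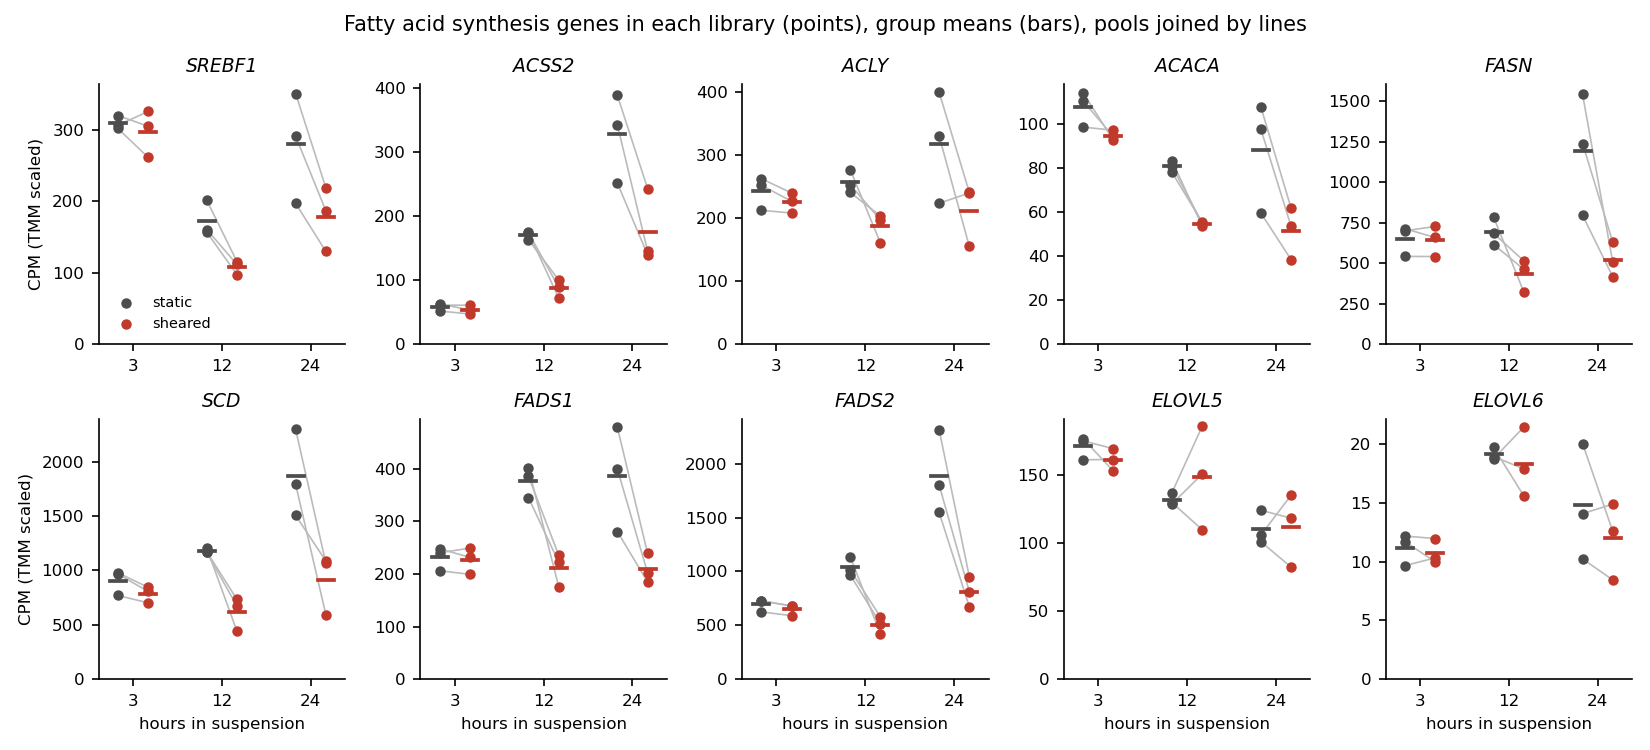
CPM of each of the 10 genes (vertical axes, starting at 0, TMM scaled) by hours in suspension, with 1 point per library, a bar for the mean of 3 and a line joining the sheared (red) and static (grey) library of a pool. All 3 sheared points lie below all 3 static points at 12 h for 8 of the 10 genes, every gene but ELOVL5 and ELOVL6, whereas at 3 h they do so for ACACA alone.

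The 3 sheared libraries lay below the 3 static ones for 1 of the 10 genes at 3 h, 8 at 12 h and 5 at 24 h, against 8.83%, 14.4% and 7.64% of all genes tested. Within pools, the sheared library was the lower one in 25 of 30 gene and pool combinations at 3 h, 27 of 30 at 12 h and 27 of 30 at 24 h, and the 10 genes of a pool share its libraries. In the fit, 10, 9 and 10 of the 10 genes had a log2 fold change below 0 at 3 h, 12 h and 24 h. Of the 15189 genes tested, 7398, 7733 and 7933 did. Direction alone is not size, and at 3 h none of the 10 had an unadjusted p under 0.05 in edgeR. Leaving out the third 24 h pool kept 8 genes lower at 24 h, with a median of -0.91. Scaling to total counts in place of TMM shifted the median of all genes by -0.15 at 12 h and -0.16 at 24 h. The members' median with total counts was -0.84 at 12 h and -0.98 at 24 h, with 8 genes lower at each. The share of lower genes among all calls moved with the scaling, from 42.0% to 77.2% at 12 h and from 46.9% to 75.5% at 24 h.

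SREBF1, the gene of the regulator SREBP-1, had 261 to 325 CPM in sheared and 302 to 319.8 CPM in static libraries at 3 h, which overlapped. At 12 h the sheared libraries of replicates 1 to 3 had 97.4, 112 and 115 CPM and the static ones 157, 160.4 and 201 CPM. Every sheared library was below every static one, and the log2 fold change was -0.67 ± 0.10 (SE; edgeR adjusted p = 7.40e-04; lower in 3 of 3 pools). At 24 h the values were 129.7, 219 and 187 CPM in sheared and 197, 351 and 291 CPM in static libraries. The groups overlapped there, with the first pool low in both arms, but the sheared library was the lower one in each pool, and the log2 fold change was -0.64 ± 0.10 (edgeR adjusted p = 4.16e-04). Without the third pool it was -0.62 (adjusted p = 0.00128). Without the pool as a block, edgeR gave SREBF1 an adjusted p of 0.0747 at 12 h and 0.0555 at 24 h. The counts are per gene and do not separate the transcripts of SREBP-1a and SREBP-1c. In the annotation, 556 exon bases of SREBF1 (6.92% of its exons) also belong to RAI1 on the opposite strand, and reads there cannot be told apart since the strand setting is not given in the sources used here.

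Of the acetyl-CoA suppliers, ACSS2 fell at both later times, while ACLY passed the threshold at 24 h and not at 12 h. No difference between those times was detected in the shear effect on ACLY (24 h minus 12 h -0.11, edgeR adjusted p = 0.937). ACSS2 had 47.3 to 61.0 CPM in sheared and 52.0 to 63.0 CPM in static libraries at 3 h. At 12 h the sheared libraries had 100.5, 89.1 and 72.1 CPM and the static libraries 163, 174 and 175 CPM. The groups were well apart, with a log2 fold change of -0.98 ± 0.13 (edgeR adjusted p = 1.55e-04). Later, at 24 h, the sheared values of ACSS2 were 243, 145 and 139.7 CPM and the static values 389, 343 and 252 CPM, a log2 fold change of -0.92 ± 0.13 (edgeR adjusted p = 9.39e-05). The highest sheared library, the first, lay just under the lowest static library, the third, so the groups were separate by a small margin.

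ACLY, which draws acetyl-CoA from citrate, was the least clear of the genes that fell. At 12 h its sheared libraries had 203, 197 and 160.1 CPM and its static libraries 240.2, 253 and 277 CPM. The groups did not overlap, yet the log2 fold change of -0.46 ± 0.17 had an adjusted p of 0.0921 in edgeR, and it passed under 5 of the alternatives. By 24 h its sheared libraries had 240.4, 155 and 239 CPM and the static ones 399, 329.7 and 223 CPM. The first 2 pools were lower in sheared cells and the third was higher, and over the 3 the log2 fold change was -0.58 ± 0.17 (edgeR adjusted p = 0.0304). Without the third pool, the one with the library that stood apart, the change in ACLY was -0.89 (adjusted p = 1.01e-04). It was -0.50 (adjusted p = 0.153) without the first pool and -0.32 (adjusted p = 0.208) without the second, and no longer past the threshold. At 3 h the ranges overlapped, at 208 to 239 and 212 to 262 CPM. Of the exon bases of ACLY, 156 overlap an antisense gene.

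Both synthesis enzymes fell. ACACA, the carboxylase that commits acetyl-CoA to the route, had 55.5, 53.7 and 55.2 CPM in sheared and 78.2, 83.5 and 80.9 CPM in static libraries at 12 h. Replicates lay close together in each arm, and the log2 fold change was -0.56 ± 0.11 (edgeR adjusted p = 0.00330). At 24 h the sheared libraries had 61.9, 53.7 and 38.5 CPM and the static ones 108, 97.9 and 59.7 CPM. The third pool was low in both arms, which made the groups overlap, and each pool was lower in sheared cells, with a log2 fold change of -0.77 ± 0.11 (edgeR adjusted p = 1.08e-04). ACACA was also the 1 gene of the 10 whose groups did not overlap at 3 h, at 92.8, 94.5 and 97.4 CPM in sheared and 114, 111 and 98.7 CPM in static libraries. That difference of -0.18 ± 0.10 on the log2 scale did not pass the threshold (edgeR adjusted p = 0.682).

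FASN, whose product builds the whole palmitate chain, had 462, 515 and 322 CPM in sheared libraries at 12 h and 616, 685 and 784 CPM in static ones. The third pool held both the lowest sheared and the highest static value, and the log2 fold change was -0.70 ± 0.16 (edgeR adjusted p = 0.0105). Without that pool it was -0.41 (adjusted p = 0.0980), and no longer past the threshold. At 24 h the sheared libraries had 630.3, 506 and 416 CPM and the static ones 1240.3, 1544 and 797 CPM. All 3 sheared values lay below the static ones, and the log2 fold change of -1.17 ± 0.16 (edgeR adjusted p = 1.20e-04) lay within the standard errors of those of FADS2 and SCD. It was -1.28 without the third 24 h pool. At 3 h FASN had 542 to 728 CPM in sheared and 543 to 714 CPM in static libraries, nearly the same range, with a log2 fold change of -0.02 and a 95% interval of -0.36 to 0.32.

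The 3 desaturases fell at both later times, with groups that did not overlap. SCD, which puts the first double bond into stearate and palmitate, had 733, 671 and 441 CPM in sheared and 1171, 1164 and 1204 CPM in static libraries at 12 h. Static libraries lay close together and the third sheared library was the lowest, for a log2 fold change of -0.97 ± 0.18 (edgeR adjusted p = 0.00347). For SCD at 24 h values were 1066, 592 and 1086 CPM in sheared and 2296, 1789.9 and 1504 CPM in static libraries. All 3 pools were lower in sheared cells, the second the most, and the log2 fold change was -1.06 ± 0.18 (edgeR adjusted p = 8.90e-04). Without the third pool it was -1.33 (adjusted p = 1.07e-05). At 3 h all 3 pools of SCD were lower in sheared cells as well, at 806, 844 and 701 CPM against 966, 977 and 769 CPM, but the groups overlapped and the log2 fold change of -0.20 ± 0.17 had an adjusted p of 0.849 in edgeR. In a fit of the 6 libraries of 3 h alone it was -0.21, with an edgeR adjusted p of 0.00899. That fit called 10.1% of all genes, against 1.46% in the fit of 18 libraries, and SCD alone of the 10.

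FADS1 and FADS2 encode the Δ5 and Δ6 desaturases of polyunsaturated fatty acid synthesis and lie side by side on chromosome 11 in opposite directions. FADS1 had 222, 236 and 176 CPM in sheared and 345, 385 and 401 CPM in static libraries at 12 h. The static libraries stood well above the sheared ones, with a log2 fold change of -0.84 ± 0.12 (edgeR adjusted p = 4.02e-04). At 24 h FADS1 had 239, 202 and 185 CPM in sheared and 479, 399 and 281 CPM in static libraries, a log2 fold change of -0.86 ± 0.12 (edgeR adjusted p = 1.24e-04). All sheared libraries of the later times were below all static ones of those times. At 3 h FADS1 had 199 to 249 CPM in sheared and 206 to 248 CPM in static libraries, so the static libraries of 12 h and 24 h lay above every 3 h library.

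FADS2 had every sheared library below every static one at both later times. Its sheared libraries had 516, 578 and 422 CPM at 12 h and its static libraries 966, 1012 and 1134 CPM. No library came near the other group, and the log2 fold change was -1.05 ± 0.12 (edgeR adjusted p = 4.82e-05). At 24 h sheared libraries had 811, 951 and 671 CPM and static libraries 1803, 2317 and 1548 CPM. The highest sheared library was far under the lowest static one, with a log2 fold change of -1.21 ± 0.12 (edgeR adjusted p = 3.15e-06), or a level 56.9% lower. It was -1.20 without the third pool, where SCD (-1.33) and FASN (-1.28) were lower, so the order of the 3 is not settled. At 3 h FADS2 had 589 to 680.5 CPM in sheared and 624 to 727 CPM in static libraries, a log2 fold change of -0.09 with a 95% interval of -0.34 to 0.15. FADS1 and FADS2 share 490 annotated exon bases on opposite strands, 4.79% and 4.44% of their exons, where reads cannot be assigned without strand.

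The elongases did not pass the threshold at any time. ELOVL5, which lengthens polyunsaturated chains, had 186, 151 and 109.7 CPM in sheared and 137, 129 and 129.6 CPM in static libraries at 12 h. The sheared libraries lay on both sides of the static ones, and the log2 fold change was 0.14 (95% interval -0.14 to 0.43; edgeR adjusted p = 0.546), or -0.01 when libraries were scaled to total counts. At 24 h ELOVL5 had 118, 82.3 and 135 CPM in sheared and 124, 101 and 106 CPM in static libraries, and its interval was -0.29 to 0.28 on the log2 scale. Both intervals lie wholly above the fold changes that FADS2, SCD, FASN and ACSS2 had at the same time. They use a single spread per gene over all 18 libraries, though, and not the spread at that time. Within pools the differences of ELOVL5 were 0.44, 0.23 and -0.24 at 12 h and -0.07, -0.29 and 0.35 at 24 h.

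ELOVL6, which carries palmitate to stearate, was the least abundant of the 10. It had 17.9, 15.6 and 21.5 CPM in sheared and 18.9, 19.7 and 18.8 CPM in static libraries at 12 h, with groups that overlapped and a 95% interval of -0.42 to 0.27 on the log2 scale. At 24 h it had 12.6, 14.9 and 8.44 CPM in sheared and 20.1, 14.1 and 10.2 CPM in static libraries. The first and the third pool were lower in sheared cells and the second was not, and the log2 fold change of -0.29 ± 0.17 had an adjusted p of 0.266 in edgeR (95% interval -0.65 to 0.07). At 3 h the log2 fold changes of ELOVL5 and ELOVL6 were -0.09 and -0.05, with overlapping groups. Whether the elongases differ from the other 8 genes in their response was not tested.

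**Figure D2:**
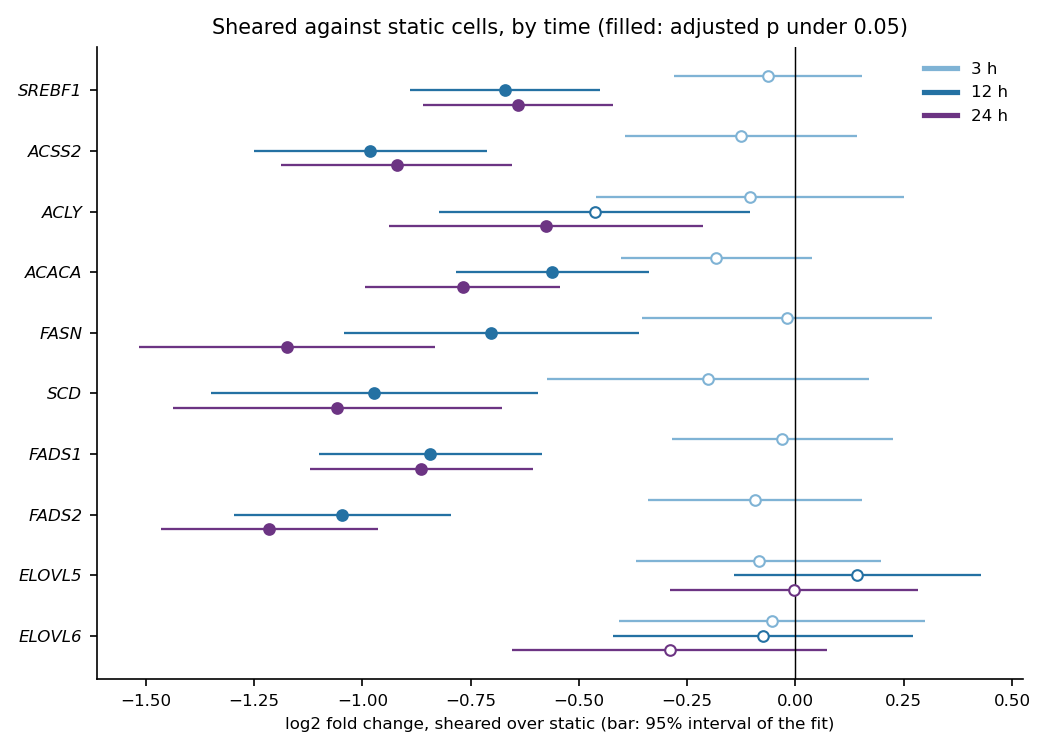
Log2 fold change of sheared over static cells (horizontal axis) for each of the 10 genes at 3 h, 12 h and 24 h, with a 95% interval from the edgeR fit as a bar and filled points for an adjusted p under 0.05. All 10 open points of 3 h have intervals that cover 0, while 7 points at 12 h and 8 at 24 h are filled and lie to the left of 0.

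Whether the shear effect itself differed between times was tested in the same fit. It was lower at 12 h than at 3 h in 4 of the 10 genes: the difference was -0.95 ± 0.17 on the log2 scale for FADS2 (edgeR adjusted p = 0.00617), -0.86 ± 0.18 for ACSS2 (adjusted p = 0.0231), -0.81 ± 0.17 for FADS1 (adjusted p = 0.0237) and, for SREBF1, -0.61 ± 0.15 (adjusted p = 0.0467). Of all genes, 1.41% were called for this difference in either direction, and 0.895% were called with a lower and 0.514% with a higher effect at 12 h. SCD, FASN and ACACA had differences of -0.77, -0.68 and -0.38, with adjusted p-values of 0.167, 0.175 and 0.266, and unadjusted p-values under 0.05. Of the 15189 genes tested, 2000 had an unadjusted p under 0.05 for this difference. SCD and FASN also passed with total counts (adjusted p = 0.0311 and 0.0386) and without the filter on low counts (2.06e-04 and 0.00298), for 6 genes in each, whereas SREBF1 did not pass with RLE factors, DESeq2's form of scaling (0.0516). The 4 calls needed every 3 h pool: none was left without any 1 of the 3 h pools (edgeR adjusted p of 0.0509 to 0.277). The differences were then -0.95 for FADS2, -0.90 to -0.79 for ACSS2, -0.84 to -0.77 for FADS1 and -0.68 to -0.53 for SREBF1. In those fits 0.384% to 0.521% of all genes were called, against 1.41% with all pools. Further, 1, FADS2, was left without the second or the third 12 h pool, and 3 without the first 12 h or the first 24 h pool. The 3 h libraries differ from the others in batch date as well as in time, and those cannot be told apart here, although each shear effect is taken within a time.

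From 12 h to 24 h no difference in the shear effect passed the threshold for any of the 10 genes in edgeR, against 0.665% of all genes (0.586% higher and 0.079% lower). None of the 10 had an unadjusted p under 0.05, against 1256 of the 15189 genes tested. DESeq2 also called 0 of the 10. FASN came nearest, with a difference of -0.47 ± 0.23 (edgeR adjusted p = 0.612, 95% interval -0.95 to 0.01). The difference for SREBF1 was 0.03 (-0.28 to 0.34), for FADS1 -0.02 (-0.38 to 0.34) and for ACSS2 0.06 (-0.31 to 0.44). With 3 pools per time, differences within these 95% intervals were not excluded.

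In static cells most of the 10 genes differed between the times in suspension, and they did not all go the same way. From 3 h to 12 h, 5 rose and 3 fell (44.7% of all genes were called, 21.7% higher and 22.9% lower). From 12 h to 24 h, 5 rose and none fell (32.5% of all genes, 16.9% higher and 15.6% lower), but the elongases were lower under other settings: ELOVL5 with total counts (-0.45, edgeR adjusted p = 0.00979), and, without the first static 24 h library, ELOVL5 (-0.36, adjusted p = 0.0179) and ELOVL6 (-0.67, adjusted p = 0.00739). ACSS2 rose at both steps, from 58.8 ± 5.93 CPM at 3 h to 171 ± 6.50 at 12 h and 328 ± 69.7 at 24 h (SD, n = 3). Its libraries did not overlap between times, and the log2 fold changes were 1.53 ± 0.15 (edgeR adjusted p = 5.21e-07) and 0.93 ± 0.15 (adjusted p = 1.97e-04). SCD and FADS2 also rose at both steps without overlap: SCD by 0.38 and 0.65 on the log2 scale (adjusted p = 0.0460 and 0.00337), and FADS2 by 0.58 and 0.85 (adjusted p = 0.00348 and 3.49e-04).

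The other genes followed different courses in static cells. FADS1 rose from 231 ± 22.3 to 377 ± 28.9 CPM between 3 h and 12 h (0.70 on the log2 scale, edgeR adjusted p = 0.00192) and had 386 ± 99.8 CPM at 24 h (adjusted p = 0.926). FASN had 652 ± 95.3 and 695 ± 84.6 CPM at 3 h and 12 h, and then rose to 1194 ± 375 CPM (0.77, adjusted p = 0.00625), with every 24 h library above every 12 h one. SREBF1 fell from 309 ± 9.44 to 173 ± 24.8 CPM (-0.84, adjusted p = 6.17e-04) and rose to 279 ± 77.4 CPM at 24 h (0.68, adjusted p = 0.00556), where its libraries overlapped those of 12 h. The regulator gene was therefore lowest at 12 h, when ACSS2, SCD, FADS1 and FADS2 were already above their 3 h levels. ELOVL6 rose from 11.2 ± 1.34 to 19.1 ± 0.504 CPM by 12 h (0.77, adjusted p = 0.00457). ELOVL5 fell from 171 ± 8.54 to 132 ± 4.49 CPM (-0.38, adjusted p = 0.0150), and ACACA from 108 ± 8.15 to 80.9 ± 2.66 CPM (-0.42, adjusted p = 0.0495). ACLY passed the threshold at neither step, at 242 ± 26.4, 256 ± 18.5 and 317 ± 88.5 CPM.

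The calls between 3 h and 12 h for ACACA, SCD and ELOVL5 were the least firm. SCD and ACACA did not pass the threshold when any 1 static library of 3 h or 12 h was left out, with log2 fold changes of 0.27 to 0.44 for SCD and -0.48 to -0.38 for ACACA. ELOVL5 did not pass without the first 3 h (-0.36), the second 3 h (-0.36) or the second 12 h library (-0.36), and none of the 3 passed in a fit of all 18 libraries with 6 group means, which left 5 of the 8. Time and batch date cannot be told apart in that step. Without the third static 24 h library ACLY also rose from 12 h to 24 h, by 0.49 on the log2 scale (edgeR adjusted p = 0.0144). That library was the lowest of its group for ACACA, ACLY, ACSS2, FADS1, FADS2, FASN, SCD and ELOVL6, and for each of these genes the SD over static libraries was larger at 24 h than at 12 h.

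**Figure D3:**
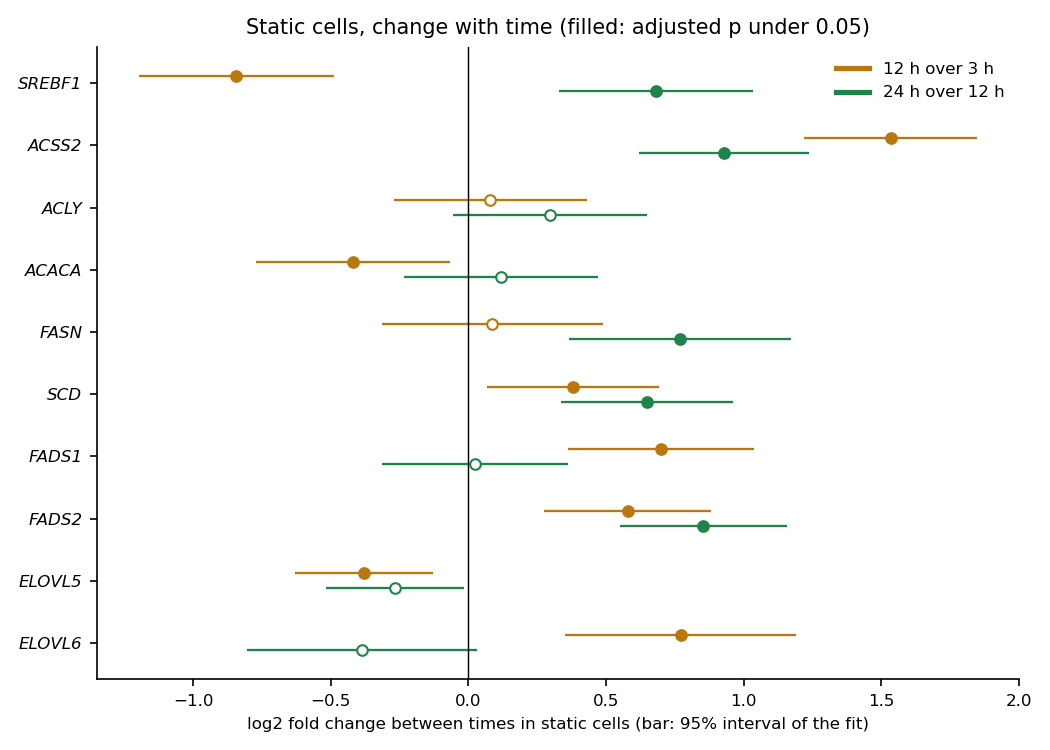
Log2 fold change between times in static cells (horizontal axis) for the 10 genes, with 95% intervals from the edgeR fit as bars, 12 h over 3 h in orange and 24 h over 12 h in green, and filled points for an adjusted p under 0.05. SREBF1 goes left by 12 h and right by 24 h, while ACSS2, SCD and FADS2 lie to the right of 0 at both steps.

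Over the 9 pools, the sheared minus static differences of most members went up and down together. Against the mean of the other 9 genes, Pearson's r was 0.96 for SCD and FADS1, 0.93 for FASN, 0.92 for FADS2, 0.89 for ACSS2, 0.88 for ACACA, 0.83 for SREBF1 and 0.80 for ACLY, but 0.15 for ELOVL5 and -0.02 for ELOVL6. The 9 points share libraries and 3 times, so these values describe the pools and carry no test. Among 10148 other genes with a mean log2 CPM of at least 3, the differences among the most like the members' mean were those of LINC01547 (r = 0.977), EDEM1 (0.971), ITGB2 (0.970) and SQSTM1 (0.963). Over the 9 static libraries the genes most like the members' mean level were MMAB (r = 0.982), ACAT2 (0.977), LSS (0.977), COL4A6 (0.966) and HDAC1 (0.966), and there ELOVL5 ran against the mean of the others (r = -0.77), while SREBF1 and ACACA showed little relation to it (-0.26 and -0.07).

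Other genes of lipid metabolism were counted in 7 lists, to be read against the 10.8% of all genes called in either direction at 12 h and the 17.2% at 24 h. List counts at an unadjusted p under 0.05 have another background. It was 1396 of 15189 genes at 3 h, 3993 at 12 h and 4776 at 24 h. At 3 h none of their tested genes passed the threshold in edgeR, and no list had more than 1 gene at an unadjusted p under 0.05. Of 20 genes of sterol synthesis and uptake, which SREBP-2 is known to drive, 12 fell at 12 h and 15 at 24 h and none rose, with list medians of -0.53 and -0.60 on the log2 scale. Among them SQLE fell by 0.85 and CYP51A1 by 0.75 at 12 h (edgeR adjusted p = 3.57e-04 and 3.80e-04), and LSS by 1.17 and DHCR7 by 0.87 at 24 h (adjusted p = 2.67e-06 and 7.37e-05). Earlier results of these data showed this fall in sterol genes already, so it is no independent support.

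Of 12 genes that control SREBP and lipogenesis, among them SCAP and INSIG1, none passed the threshold at 12 h (5 had an unadjusted p under 0.05) and 3 fell at 24 h. These were NR1H3, which encodes the sterol sensor LXRα (-0.53, edgeR adjusted p = 0.0300), MBTPS1, whose protease cuts SREBP (-0.34, 0.0303), and MID1IP1, which helps acetyl-CoA carboxylase polymerize (-0.40, 0.0361). SREBF2, the gene of SREBP-2, had a log2 fold change of -0.33 at 12 h (adjusted p = 0.102). The list's median was -0.17 at 12 h and -0.24 at 24 h. Of 9 tested genes that supply citrate, NADPH or malonyl-CoA, IDH1, which makes cytosolic NADPH, fell at 12 h and 24 h (-0.71 and -0.64; adjusted p = 5.88e-04 and 6.30e-04), and ACSS1, the mitochondrial counterpart of ACSS2, fell at 24 h at a low level (-1.64, adjusted p = 0.0239). Among the 12 other elongation and desaturation genes 0 passed at 12 h (3 at an unadjusted p under 0.05) and 1 at 24 h, ELOVL4, which makes very long chains (-0.57, adjusted p = 0.0137).

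Genes downstream of the route were mixed. Of 15 genes of fatty acid activation, glycerolipid synthesis and storage, 2 rose and 2 fell at 12 h, and 2 rose and 3 fell at 24 h. ACSL1, which joins fatty acids to coenzyme A, fell by 0.69 at 12 h and 0.98 at 24 h (edgeR adjusted p = 0.00233 and 4.12e-05), and LPIN1, which makes diacylglycerol, by 0.76 and 0.87 (adjusted p = 5.58e-04 and 5.91e-05). GPAM, which starts glycerolipid synthesis, fell by 1.04 at 24 h (adjusted p = 0.0131). MGLL, the monoglyceride lipase, rose by 0.91 at 12 h (adjusted p = 7.63e-05) and by 0.35 at 24 h (adjusted p = 0.0338). The other risers, named after their values were seen, were AGPAT2 at 12 h (0.66, adjusted p = 0.00658) and the lipid droplet gene PLIN2 at 24 h (0.65, adjusted p = 0.0410). Of 6 tested genes of fatty acid uptake and binding none passed at any time in edgeR, and 0, 1 and 1 had an unadjusted p under 0.05 at 3 h, 12 h and 24 h. Of 15 genes of fatty acid oxidation none passed at 12 h (3 at an unadjusted p under 0.05), and at 24 h CPT2 of the carnitine shuttle fell (-0.59, adjusted p = 0.0173) and HADH rose (0.45, adjusted p = 0.0237). At 24 h the 2 of 15 called in the oxidation list, the 1 of 12 among other elongation and desaturation genes and the 0 of 6 in the uptake list lay below the share of all genes called. The substrate supply list, with 1 of 9 called at 12 h and 2 of 9 at 24 h, was near that share. In the control list 3 of 12 were called at 24 h, against 17.2% of all genes.

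**Figure D4:**
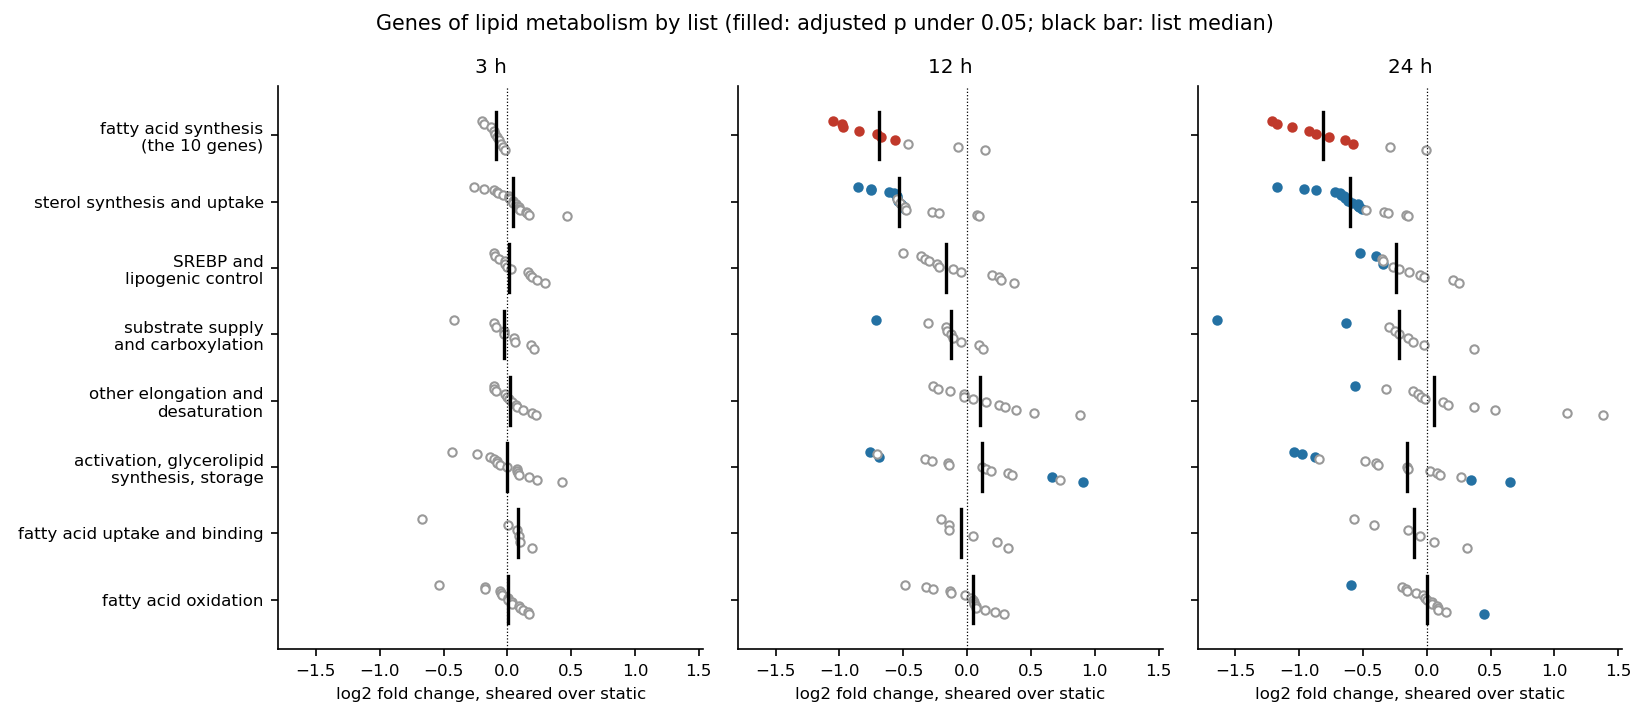
Log2 fold change of sheared over static cells (horizontal axis) for the 10 genes and for 7 lists of lipid metabolism genes, in 1 panel per time, with 1 point per gene, filled for an adjusted p under 0.05, and a black bar at each list's median. The medians of the 10 genes (-0.69 and -0.82) and of the sterol list (-0.53 and -0.60) lie to the left of the other 6 lists at 12 h and 24 h, and all lists lie near 0 at 3 h.

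In static cells 44.7% of all genes were called from 3 h to 12 h and 32.5% from 12 h to 24 h, and list counts near or below those shares say nothing of the list. Of the 20 sterol genes 14 rose over the first step and 16 over the second, with none falling. The 12 genes of the control list had 4 higher and 1 lower, then 6 higher and 1 lower. For the 9 tested genes of the substrate supply list the counts were 2 higher and 3 lower, then 3 higher and 1 lower. The 12 other elongation and desaturation genes had 2 higher and 1 lower, then 4 higher and 2 lower. Of 15 activation and storage genes 5 were higher and 3 lower, then 8 and 1, of 6 uptake and binding genes 2 and 2, then 3 and 0, and of 15 oxidation genes 1 and 2, then 5 and 0. Over the first step the oxidation genes (3 of 15) and the other elongation and desaturation genes (3 of 12) lay below the share of all genes called, and the control list (5 of 12) was near the share of all genes. Over the second step the oxidation list (5 of 15) was near it.

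Markers of other cell types were compared beside these results. The 8 markers of fibroblasts and endothelial cells summed to 42.8 to 56.2 CPM in sheared and 72.7 to 96.8 CPM in static libraries at 12 h, to 50.2 to 76.0 and 77.9 to 99.6 CPM at 24 h, and to 14.7 to 18.4 and 17.4 to 21.0 CPM at 3 h. PECAM1 carried most of that sum, at 10.2 to 96.8 CPM. LUM and COL3A1 had at most 4.12 and 1.99 CPM, and CDH5 and VWF at most 6 and 4 counts, in any library. The 7 haematopoietic markers summed to 0.594 to 2.41 CPM over all libraries. The 4 nuclear-retained RNAs, of which MEG3 had no count, summed to 133 to 166 CPM in sheared and 149 to 168 CPM in static libraries at 12 h, and to 49.0 to 344 and 89.8 to 165 CPM at 24 h. At 3 h these RNAs summed to 50.6 to 81.2 CPM in sheared and 74.9 to 101 CPM in static libraries. The carcinoma markers summed to 3929.6 to 4812 CPM in sheared and 4939 to 5149.6 CPM in static libraries at 12 h, and to 5495 to 7255 and 6087 to 8762 CPM at 24 h. At 3 h the carcinoma markers were higher in sheared libraries, at 4020 to 4123 CPM against 3684 to 3931 CPM in static ones. The 8 markers of androgen-dependent prostate cells summed to 78.1 to 87.6 CPM in sheared and 95.5 to 130.5 CPM in static libraries at 24 h. Their sums overlapped at 3 h (66.2 to 150.7 in sheared and 74.2 to 149.4 CPM in static libraries) and at 12 h (62.1 to 74.0 and 66.3 to 73.7 CPM). The part of any of these in the results for the 10 genes was not tested.

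In the authors' deposited table, 0 of the 10 genes had an adjusted p under 0.05 at 3 h, 7 were lower at 12 h and 7 at 24 h, with median log2 fold changes of -0.09, -0.71 and -0.81. The 7 genes at 12 h bore the same names as in the edgeR fit. At 24 h the authors' deposited table gave ACLY a log2 fold change of -0.55 with an adjusted p of 0.0631, the 1 call in which it and the fit differed.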

How the data were processed

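The RNA of 18 libraries of PC-3 cells was measured by RNA-seq, as read counts per gene. Per the submitters' processing notes, STAR, DESeq2 and the genome GRCh38.p13 were used; tool versions, the read counter, the annotation counted on and the strand mode were not given in the sources used here. Raw counts per NCBI Gene ID, without normalization, are what the authors deposited. The authors' 3 tables of comparisons hold, per the file headers, a log2 fold change and an adjusted p-value per gene. Symbols came from RefSeq (GRCh38.p14) for 27745 of 28395 IDs, and lengths and exon overlaps from GENCODE 29.

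The 10 genes and the lists of other genes were chosen with earlier results of these data known. All 10 are named, up to 3 genes per list by p in each comparison, and the 5 genes most alike in pattern, except that some genes are not reported here. Columns of the 3 h libraries were matched to samples by time and letter, taking the treatment letter to mean what it does in the 12 h and 24 h names. Groups are those of the labels, and replicates are separate pools of cells of 1 line. No pair of libraries was identical, and replicates differed by 4.44 to 143 in chi-square per degree of freedom.

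Genes were kept by filterByExpr (minimum count 10, minimum total 15), which left 15189. edgeR 4.0.16 in R 4.3.3 was used with TMM scaling and the robust, legacy form of the quasi-likelihood F test. The fit held 18 libraries, a block for each of 9 pools and 1 sheared-against-static term at each time (6 residual degrees of freedom), and p-values were adjusted over all genes by Benjamini-Hochberg. Static times were compared in a fit of the 9 static libraries (14804 genes). Standard errors were taken as the absolute log2 fold change divided by the root of the F statistic. CPM of the 10 genes are TMM scaled, those of marker genes use total counts, and log2 CPM has a prior count of 2. The fits were tested on simulated counts. Alternatives were RLE factors, total counts, DESeq2 1.42.0, no filter, no block, other sets of libraries, and each pool or library left out.

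Per the submitters' description of the design, sheared and static libraries of a number within a time share a pool. As a check, deviations from group means correlated across genes, for libraries of the same number, at 0.0881 to 0.299 (3 h), -0.148 to 0.245 (12 h) and 0.379 to 0.504 (24 h), and for other numbers at -0.242 to 0.130, -0.385 to 0.233 and -0.296 to -0.0924. Same-number and other-number values overlapped at 3 h and 12 h and were apart at 24 h. At 12 h the second sheared library correlated at -0.148 with the second static library and at 0.233 with the third. The pairing at 12 h therefore rests on the description of the design. Depth was 16400487 to 25862360 counts. An exact permutation of 3 against 3 libraries was not used.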

Additional observations from a re-analysis of the deposited data

Results flagged for a closer look

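In 4 of the 10 genes the shear effect differed between 3 h and 12 h by a test of that difference in the edgeR fit, against 1.41% of all genes. The effect at 12 h minus that at 3 h was -0.95 on the log2 scale for FADS2 (adjusted p = 0.00617), -0.86 for ACSS2 (adjusted p = 0.0231), -0.81 for FADS1 (adjusted p = 0.0237) and -0.61 for SREBF1 (adjusted p = 0.0467). The sheared library was the lower one in 3 of 3 pools for each of these genes at 12 h, and at 3 h in 3 of 3 for FADS2 and ACSS2 and 2 of 3 for FADS1 and SREBF1. None of the 4 passed without any 1 of the 3 h pools or without the replicate block, and SREBF1 did not pass with RLE scaling factors (edgeR adjusted p = 0.0516). Of all genes, 0.384% to 0.521% were called without a 3 h pool and 0.191% without the block.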

How the results depend on the processing

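No value of the 10 genes that had passed its threshold changed direction under any alternative tried. The count of members past the threshold, over the alternatives, was 4 to 8 at 12 h (median log2 fold change -0.84 to -0.58) and 6 to 8 at 24 h (-0.98 to -0.74). Without the replicate block, which ignores the pairing, 4 fell at 12 h (SREBF1, ACACA and FASN had adjusted p-values of 0.0747, 0.116 and 0.115 in edgeR), 6 fell at 24 h, and 0 passed for the difference between 12 h and 3 h. That last count was 0 to 5 when a pool was left out, 3 with RLE factors and 6 with total counts or without the filter. At 3 h the members' median was -0.14 with total counts, and 1 gene, SCD, passed when the 6 libraries of 3 h were fitted alone. That fit called 10.1% of all genes. Between 3 h and 12 h in static cells 5 passed in the fit of all 18 libraries with 6 group means, and 5 to 8 with a library left out. ACLY at 12 h passed with total counts (adjusted p = 0.00934), without the filter (0.00465), with the 6 libraries of 12 h alone (0.0155), and without the second (0.0344) or the third (0.00546) 24 h pool. At 24 h ACLY did not pass without the block (0.0801) or with 6 libraries alone (0.141). The cause of these changes was not tested. Of all genes, the share called ranged from 0.421% to 10.1% at 3 h, 2.11% to 17.4% at 12 h, 5.39% to 21.0% at 24 h, 0.191% to 4.11% for 12 h minus 3 h, 0.00658% to 1.47% for 24 h minus 12 h, 31.6% to 47.5% for static 12 h over 3 h and 18.8% to 38.2% for static 24 h over 12 h. With total counts the shift of the median of all genes was -0.10 for 12 h minus 3 h and -0.19 for static 24 h over 12 h, and lower genes made up 80.9% in place of 63.6%, and 73.7% in place of 48.0%, of the calls. With 3 pools per time, small differences at 3 h, and those of ELOVL6 at 110 to 447 counts per library, were not excluded. The SE of ELOVL6 at 12 h (0.165) was near those of SCD (0.177) and ACLY (0.169). Levels are of cytosolic RNA in a single cell line, and neither protein nor lipid was measured in these files.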
